A study of Rattus norvegicus with 15 samples.

Results

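Eplerenone within cirrhotic livers was examined by a direct comparison of 2 groups of rats, 5 with cirrhosis and 5 with cirrhosis & eplerenone, which are 10 of the 14 liver samples in the count table and of the 15 in the labels. The members of both groups were chosen by their labels alone, and all 32623 genes of the table were considered. Both groups were male Wistar rats that inhaled CCl4 for 12 weeks and drank water with phenobarbital at 0.35 g/L, which raises the toxicity of CCl4. The second group also took eplerenone by mouth, 100 mg/kg in hazelnut spread, for 4 weeks, from week 8 to week 12. Eplerenone had thus also ended before the livers were taken. Livers were taken 7 to 10 days after the last CCl4 exposure, so both groups share the toxin, the phenobarbital and the pause. The sources used here do not say whether the cirrhosis rats also ate the spread. If they did not, drug and spread cannot be told apart here. Control rats, of which 4 have a column and 1 was not analysed here, enter the count filter, the scaling and the estimate of the spread. Their values are otherwise given only as a reference level. According to the study the rats sequenced were picked for success of cirrhosis induction, of eplerenone treatment or of both, so the groups are not a random draw of treated animals.

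The mineralocorticoid receptor (Nr3c2) is a nuclear receptor for aldosterone that also binds glucocorticoids, and eplerenone is a steroidal antagonist of it. It shares its DNA element and many target genes with the glucocorticoid receptor (Nr3c1). In fibrotic liver, sinusoidal endothelial cells lose their open, scavenging state, stellate cells turn from vitamin A storage to matrix production, Kupffer cells give way to recruited macrophages, and hepatocytes lose part of their metabolic genes. Levels are given below as FPM, counted fragments scaled to the TMM-adjusted library size as edgeR's CPM are, and differences as log2FC, cirrhosis & eplerenone minus cirrhosis, with SE.

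The libraries held between 16157491 and 21574767 counted fragments. Each sample name also carries a prefix, 15 or 20, whose meaning the labels do not give and which occurs in both groups. Prefix 15 stands before 3 cirrhosis samples (numbers 1 to 3) and before 2 samples with eplerenone (numbers 1 and 2), and prefix 20 before the other 5. Cirrhosis replicate 5 stood apart from its group. Its mean correlation of log2 FPM with the control samples was 0.944, against 0.842 to 0.892 for the other cirrhosis samples. Cirrhosis & eplerenone replicate 3 had the lowest such correlation of the treated samples, 0.875 against 0.912 to 0.955. The groups were not cleanly apart: 4 of the 10 samples, cirrhosis replicates 2 and 5 and treated replicates 3 and 5, correlated better with the other CCl4 group than with their own. Results are given for all 10 rats, and for chosen results also with 4 rats per group, without cirrhosis replicate 5 and treated replicate 3. The group means that the study printed leave out the same rats, for a reason not given in the sources used here. As these are the cirrhosis rat nearest to control and the treated rat furthest from it, the smaller set is not an unselected comparison. The defining hepatocyte gene Alb (albumin) was at 79390 FPM in cirrhosis and 92030 FPM in cirrhosis & eplerenone. The adipocyte markers Adipoq, Plin1, Lep and Retn did not pass the count filter.

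Of 14417 genes tested, 2 were called at FDR below 0.05 by edgeR (0.0139%), both higher with eplerenone. They were Gemin6, a subunit of the SMN complex that loads Sm proteins onto spliceosomal RNAs, and Ehd3, a membrane-trafficking ATPase that marks sinusoidal endothelium. In both, every treated rat lay above every cirrhosis rat. The lowest FDR of any other gene was 0.28. At an unadjusted p below 0.05, 976 genes were higher (6.77%) and 1100 lower (7.63%), and the median log2FC of all genes tested was 0.01. At any p, 51.06% of the genes tested were higher with eplerenone. These shares are the background for the counts of list members below. In 61 genes (0.423%) every treated rat lay above every untreated rat, and in 78 genes (0.541%) every treated rat lay below. With so few rats per group, chance alone separates some of 14417 genes in this way. A lack of overlap by itself therefore does not mark a gene as changed. DESeq2 called 38 genes higher (0.264%) and 36 lower (0.25%) on the same 10 rats. In simulated data of these groups, with 200 genes changed 4-fold, DESeq2 made 32 false calls and edgeR 6, so calls by DESeq2 alone are less certain. The simulation held no shift shared by many genes of a rat, such as that of cirrhosis replicate 5, so its rates may not hold here. With 4 rats per group, edgeR called 630 genes higher (4.46%) and 664 lower (4.7%). The rats left out were the cirrhosis rat nearest to control and the treated rat furthest from it. Calls and FDRs with 4 rats per group are therefore descriptive, here and below.

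Gemin6 was at 2.22, 3.14, 3.61, 2.72 and 3.93 FPM in cirrhosis replicates 1 to 5 and at 9.61, 17.8, 10.2, 12.9 and 13.9 FPM in cirrhosis & eplerenone replicates 1 to 5. The lowest treated rat was thus well above the highest untreated one, and the treated level was close to that of control (16.7 ± 6.25 FPM, SD, n = 4). Its log2FC was 2.04 ± 0.26 (SE), with an edgeR FDR of 0.0153, and it was 2.16 within prefix 15 and 1.92 within prefix 20. Ehd3 was at 15.1, 17.8, 13.1, 11.2 and 18.3 FPM in cirrhosis and at 49.1, 43.7, 32.2, 37.5 and 35.8 FPM with eplerenone. The groups did not overlap here either, and control stood at 37.5 ± 9.89 FPM (SD, n = 4). The log2FC of Ehd3 was 1.39 ± 0.19 (SE) with an edgeR FDR of 0.0172, and 1.57 and 1.28 within prefixes 15 and 20. Neither call held in every fit with 1 sample left out. Without cirrhosis replicate 1 the edgeR FDR of Gemin6 was 0.0654 and that of Ehd3 0.0762, without cirrhosis replicate 4 both were at 0.0542, and without cirrhosis & eplerenone replicate 4 both were at 0.0538. Ehd3 also had an FDR above the threshold without cirrhosis replicate 3 (0.0905) and without cirrhosis & eplerenone replicate 1 (0.0643) or 2 (0.067).

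Both genes lie on chromosome 6 in the table, and their promoters are shown because they are the genes called. The sequences come from RefSeq on GRCr8, minus strand, 250 bases before to 50 bases after the start, at chr6:20542803-20543102 for Gemin6 and chr6:27417396-27417695 for Ehd3. Neither holds the corticosteroid receptor site TGTTCT or its reverse AGAACA, which would be in capitals.
Gemin6: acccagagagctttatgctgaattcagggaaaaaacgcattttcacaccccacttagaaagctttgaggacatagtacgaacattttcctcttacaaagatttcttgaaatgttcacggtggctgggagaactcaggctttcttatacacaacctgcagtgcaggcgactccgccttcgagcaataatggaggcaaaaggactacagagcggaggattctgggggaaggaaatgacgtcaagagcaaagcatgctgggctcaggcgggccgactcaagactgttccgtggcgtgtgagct
Ehd3: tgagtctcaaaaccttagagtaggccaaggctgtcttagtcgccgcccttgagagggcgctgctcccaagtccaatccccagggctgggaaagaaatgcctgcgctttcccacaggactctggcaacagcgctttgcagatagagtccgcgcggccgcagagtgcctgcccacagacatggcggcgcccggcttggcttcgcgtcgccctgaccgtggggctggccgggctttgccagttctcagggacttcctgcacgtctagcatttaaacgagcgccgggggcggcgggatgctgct
The other members of the SMN complex and the Sm core did not go with Gemin6. Of 16 tested, 12 were lower, 5 of these at p below 0.05, with a median log2FC of -0.39. Snrpd2, an Sm core protein, had a log2FC of -0.73 ± 0.26 (SE), which was -0.45 without cirrhosis replicate 3, and Gemin7, the binding partner of Gemin6, one of -0.51 ± 0.21 (SE).

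**Figure D1:**
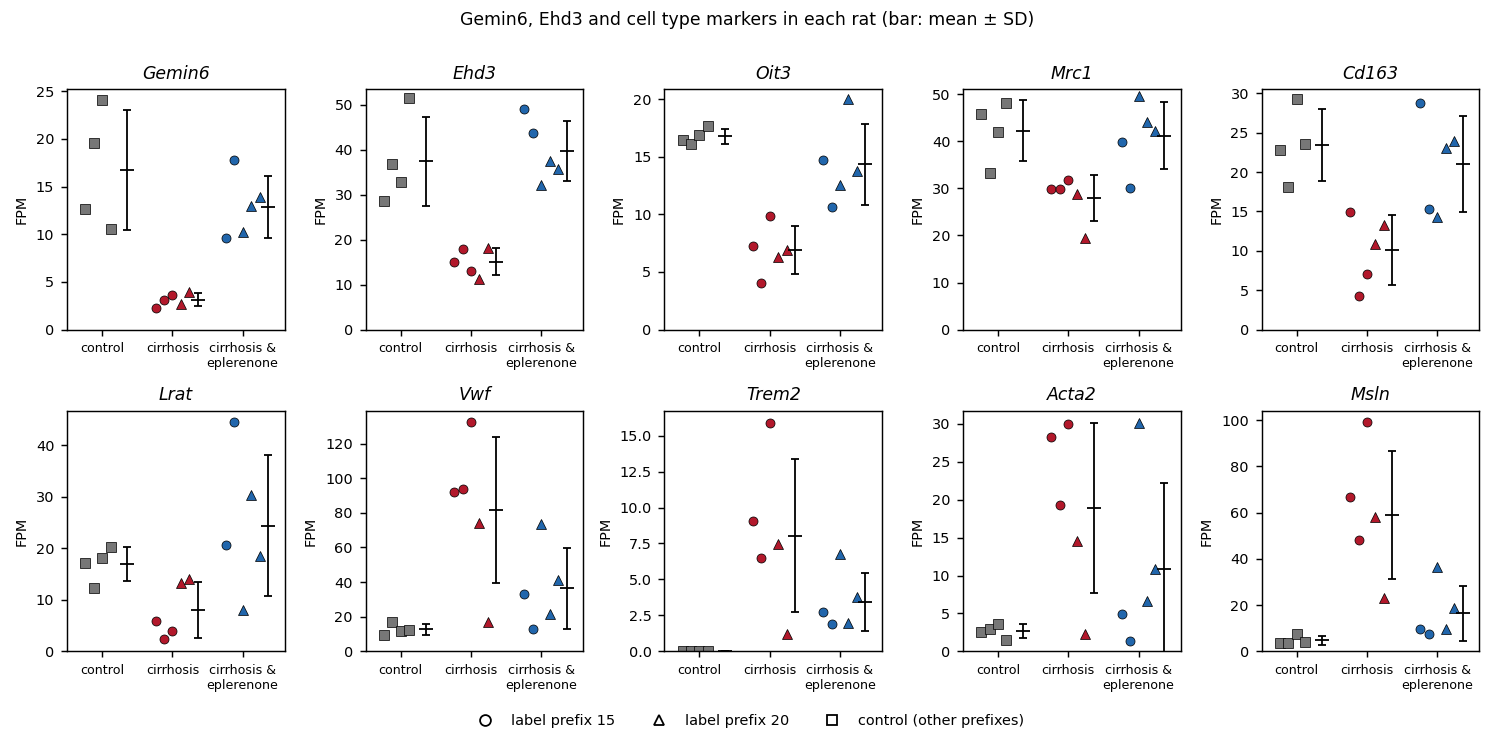
FPM of Gemin6, Ehd3 and 8 cell type markers in each rat, by group, with circles for label prefix 15, triangles for prefix 20, squares for control, and the mean ± SD at the right of each group; the y axis starts at 0 and cuts any bar that would go below it. The treated rats lie above all cirrhosis rats for Gemin6, Ehd3 and Oit3, while Vwf, Trem2 and Acta2 overlap, with cirrhosis replicate 5 the lowest of its group.

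The sinusoidal endothelial list, to which Ehd3 belongs, had no lower member. All 16 of its 16 members were higher with eplerenone, 7 at p below 0.05 against 6.77% of all genes, with a median log2FC of 0.66 against 0.01. The 7 include Ehd3 itself. This list, like the others, was chosen with earlier results of these data known, so the counts are descriptive and not independent support. The median was 0.51 within prefix 15, 0.71 within prefix 20 and 0.64 with 4 rats per group, and leaving out any 1 sample kept it between 0.53 and 0.71. In bulk liver, fewer cells of a type and less RNA per cell cannot be told apart. Oit3, a secreted protein of sinusoidal cells, was at 7.27, 4.08, 9.87, 6.26 and 6.9 FPM in cirrhosis and at 14.7, 10.6, 12.5, 20 and 13.8 FPM with eplerenone. Its groups did not overlap, and its log2FC of 1.06 ± 0.22 (SE) was called by DESeq2 (FDR 0.01) but not by edgeR (FDR 0.312). Mrc1, the mannose receptor shared by sinusoidal cells and macrophages, was at 29.8, 29.9, 31.9, 28.8 and 19.5 FPM in cirrhosis and at 39.9, 30.1, 49.5, 44.1 and 42.3 FPM with eplerenone. Only treated replicate 2 reached down into the cirrhosis range, and the log2FC was 0.56 ± 0.17 (SE, edgeR FDR 0.312). The scavenger receptor Stab2 had a log2FC of 0.80 ± 0.48 (SE) and the hyaluronan receptor Lyve1 one of 0.23 ± 0.34 (SE).

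Markers of other vessels did not share this shift. The vascular endothelial list had 4 of 8 members higher, with a median log2FC of 0.02, which was -0.74 within prefix 15 and 0.43 within prefix 20. Vwf, von Willebrand factor, which sinusoidal cells gain as they turn into ordinary capillaries, was at 91.7, 94, 132.6, 74 and 16.9 FPM in cirrhosis and at 33.3, 12.8, 73.7, 21.4 and 41.1 FPM with eplerenone. Cirrhosis replicate 5 lay with the treated rats and treated replicate 3 almost with the cirrhosis rats. The log2FC of Vwf was -1.17 ± 0.47 (SE, edgeR FDR 0.316), and it was called with 4 rats per group (-1.87, FDR 0.0156). Plvap, the diaphragm protein of capillary fenestrae, followed with -1.16 ± 0.36 (SE, edgeR FDR 0.312) and -1.60 with 4 rats per group (FDR 0.0164).

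Markers of resident and recruited macrophages had opposite signs. In the Kupffer cell list 6 of 7 tested members were higher, 2 at p below 0.05 against 6.77% of all genes. The median log2FC was 0.63, and it was 0.44 and 0.80 within prefixes 15 and 20 and 1.05 with 4 rats per group. Cd163, the haptoglobin-haemoglobin scavenger receptor, was at 14.9, 4.24, 7.01, 10.9 and 13.3 FPM in cirrhosis and at 28.7, 15.3, 14.3, 23.1 and 23.9 FPM with eplerenone. Only treated replicate 3 was below the highest cirrhosis rat, and the log2FC was 1.07 ± 0.30 (SE, edgeR FDR 0.312). The complement receptor Vsig4 had a log2FC of 1.32 ± 0.60 (SE), which was 2.02 without cirrhosis replicate 5, and the lectin Clec4f one of 0.63 ± 0.54 (SE). In the list of monocytes and scar macrophages 8 of 9 members were lower, 2 at p below 0.05 against 7.63% of all genes. Its median log2FC was -0.54. Trem2, a lipid receptor of scar-associated macrophages, was at 9.1, 6.49, 15.9, 7.49 and 1.19 FPM in cirrhosis and at 2.76, 1.88, 6.76, 1.98 and 3.77 FPM with eplerenone. Cirrhosis replicate 5 was the lowest of all 10 rats and treated replicate 3 the highest of its group. The log2FC of Trem2 was -1.22 ± 0.52 (SE, edgeR FDR 0.325) over 10 rats and -1.92 with 4 rats per group (FDR 0.0184), while the median of the list was -1.46 within prefix 15, 0.12 within prefix 20 and -1.31 with 4 rats per group.

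Stellate cell markers were mixed. In the quiescent stellate list 5 of 11 tested members were higher and the median log2FC was -0.04, and the 2 members at p below 0.05, Lrat and Reln, were both higher. Lrat, which esterifies retinol for storage, was at 5.82, 2.49, 3.88, 13.3 and 14.1 FPM in cirrhosis and at 20.6, 44.5, 8.09, 30.4 and 18.4 FPM with eplerenone. Treated replicate 3 lay inside the cirrhosis range and the other treated rats lay above it. The log2FC was 1.62 ± 0.47 (SE, edgeR FDR 0.312) for Lrat and 0.91 ± 0.42 (SE) for Reln, the secreted matrix protein reelin, which was 0.54 without treated replicate 2. In the myofibroblast list 9 of 11 tested members were lower, with a median log2FC of -0.70 that was -1.69 within prefix 15, 0.71 within prefix 20 and -1.33 with 4 rats per group. It was -0.20 without cirrhosis replicate 3 and -0.033 without cirrhosis replicates 1 and 3. Of its 3 members at p below 0.05, Lox was lower and Loxl2 and Col3a1, a fibrillar collagen (0.44 ± 0.20, SE), were higher. Acta2, smooth muscle actin, was at 28.3, 19.3, 30, 14.6 and 2.26 FPM in cirrhosis and at 4.96, 1.31, 30.1, 6.66 and 10.9 FPM with eplerenone. The highest of all 10 rats was treated replicate 3 and the groups overlapped widely, with a log2FC of -0.80 ± 0.66 (SE, edgeR FDR 0.54) that was -3.05 within prefix 15, 0.93 within prefix 20 and -1.96 with 4 rats per group (FDR 0.0276). Lox, a collagen-crosslinking enzyme, was at 9.1, 6, 14, 8.82 and 27.3 FPM in cirrhosis and at 2.66, 0.939, 8.74, 4.12 and 6.39 FPM with eplerenone, a log2FC of -1.50 ± 0.54 (SE, edgeR FDR 0.312). Unlike for Acta2, cirrhosis replicate 5 was the highest rat for Lox. Its relative Loxl2 had the opposite sign, 1.39 ± 0.54 (SE), at mean levels of 0.833 and 2.23 FPM.

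Most markers of ducts and lymphocytes had lower mean levels with eplerenone. In the cholangiocyte list 8 of 9 tested members were lower and none passed p below 0.05, with a median log2FC of -0.53, which was -0.32 without treated replicate 2. The median was -1.14 within prefix 15 but 0.11 within prefix 20, where 6 of the 9 were higher. In the T and NK cell list 6 of 10 were lower with a median of -0.59, which was -0.22 without cirrhosis replicate 3. This median was -1.47 within prefix 15 but 0.12 within prefix 20. Cd2, a T cell adhesion receptor, had a log2FC of -1.10 ± 0.43 (SE) at mean levels of 2.18 and 1.01 FPM. In the B and plasma cell list 6 of 7 were lower with a median of -0.74, which was -0.39 without cirrhosis replicate 4. In the mesothelial list 2 of 3 tested members were higher, with a median of 0.12. Msln, mesothelin, was at 66.8, 48, 99.1, 57.9 and 23 FPM in cirrhosis and at 9.51, 7.51, 36.4, 9.54 and 19 FPM with eplerenone. Only cirrhosis replicate 5 and treated replicate 3 crossed over, and the log2FC of -1.84 ± 0.44 (SE) was called by DESeq2 (FDR 0.0138) but not by edgeR (FDR 0.312). The other 2 mesothelial markers tested were not lower, and Upk3b, a uroplakin, had a log2FC of 0.12 ± 0.56 (SE). The general hepatocyte list had a median log2FC of 0.01, with 6 of 11 members higher and none at p below 0.05.

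**Figure D2:**
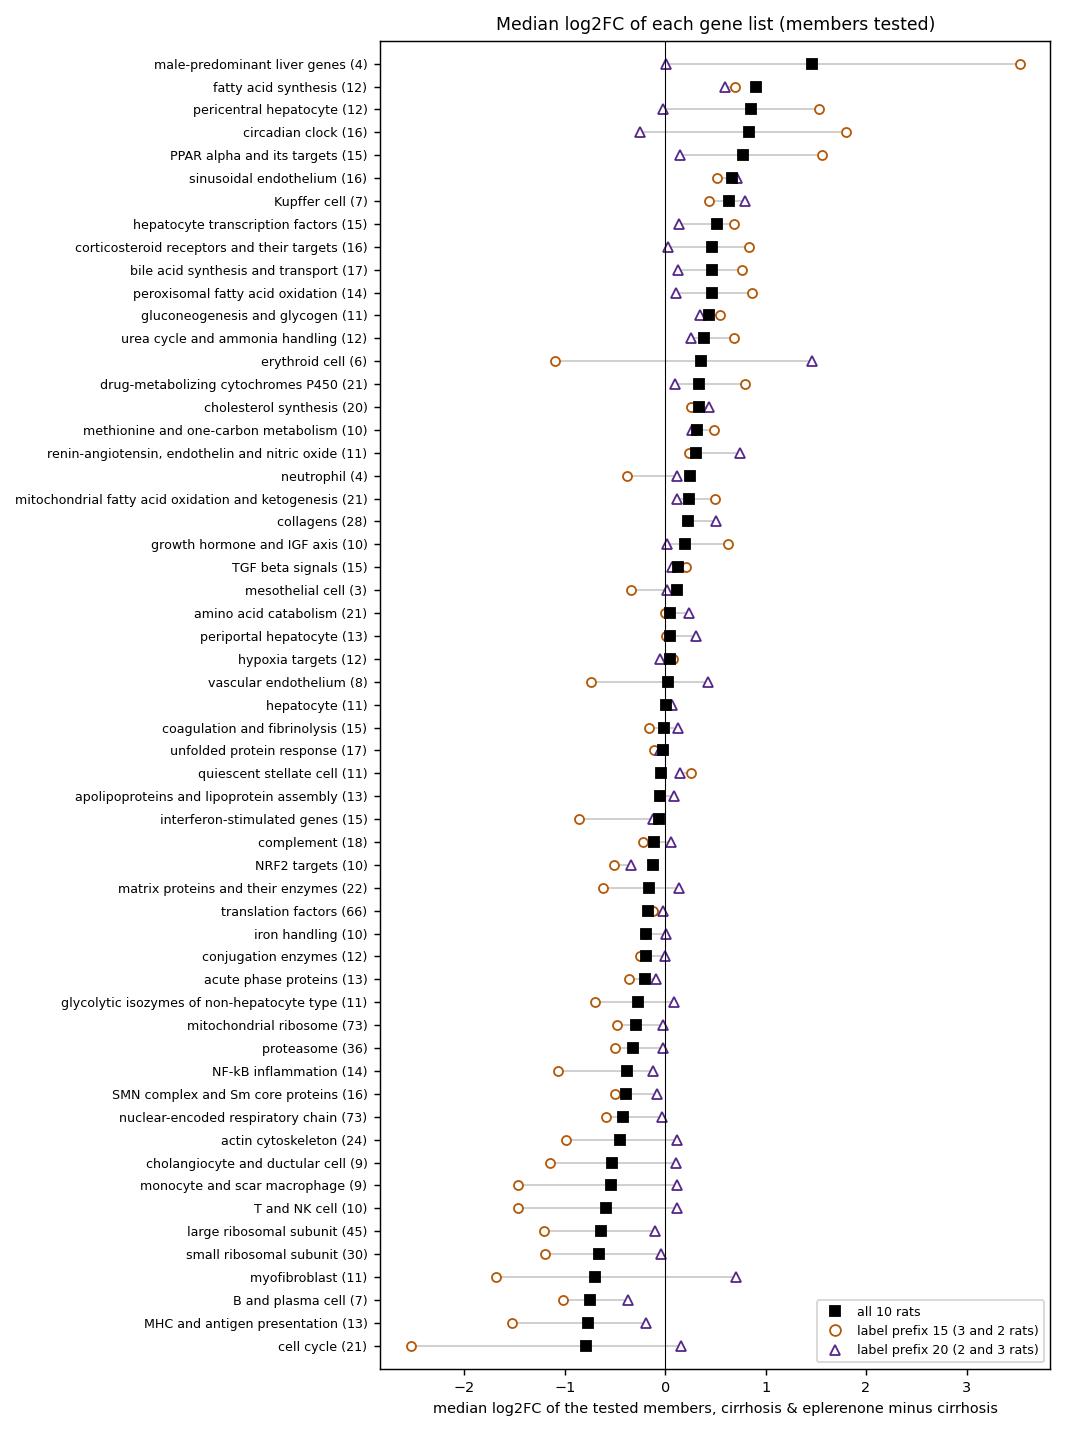
Median log2FC of the tested members of each gene list with at least 3 tested members (number in brackets), for all 10 rats (black squares), for label prefix 15 (circles) and for label prefix 20 (triangles). The sinusoidal endothelial, Kupffer cell and fatty acid synthesis medians were positive in all 3 readings, while cell cycle, myofibroblast and circadian clock medians changed sign between prefixes.

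The receptors that eplerenone and corticosteroids act on were low or overlapping. Nr3c2, the mineralocorticoid receptor, was at 0, 0.326, 0.108, 0 and 0.357 FPM in cirrhosis and at 0.307, 1.13, 0.364, 0.621 and 0.109 FPM with eplerenone. These levels are low, the groups overlapped, and the log2FC was 1.60 ± 0.85 (SE, edgeR FDR 0.378). Nr3c1, the glucocorticoid receptor, was at 32.8, 49.3, 29.1, 44 and 73.6 FPM in cirrhosis and at 79.1, 130.3, 38, 60.9 and 48.7 FPM with eplerenone. The groups overlapped, with a log2FC of 0.64 ± 0.30 (SE, edgeR FDR 0.349) that was 0.31 without treated replicate 2 and 1.02 with 4 rats per group (FDR 0.0353). In the list of corticosteroid receptors and their shared targets 13 of 16 members were higher, 4 at p below 0.05, with a median log2FC of 0.47 over 10 rats and 0.76 with 4 rats per group. The median was 0.84 within prefix 15 and 0.03 within prefix 20.

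The 3 members with the lowest p, Klf9, Zbtb16 and Fkbp5, are known to respond to glucocorticoids. Klf9, a transcription factor, was at 4.88, 7.79, 5.77, 5.13 and 10.7 FPM in cirrhosis and at 43.1, 47.5, 9.92, 19.4 and 9.18 FPM with eplerenone. The 2 treated rats of prefix 15 were far above the rest, and treated replicates 3 and 5 lay inside the cirrhosis range. Klf9 had a log2FC of 1.91 ± 0.44 (SE), with FDR 0.01 by DESeq2 and 0.312 by edgeR, or 0.0164 by edgeR with 4 rats per group. Zbtb16, the zinc finger protein PLZF, was at 0.721, 1.1, 2.16, 0.513 and 0.893 FPM in cirrhosis and at 5.16, 1.44, 2.06, 5.25 and 5.52 FPM with eplerenone. Cirrhosis replicate 3 and treated replicates 2 and 3 overlapped, and the log2FC was 1.84 ± 0.44 (SE), with FDR 0.0189 by DESeq2 and 0.312 by edgeR. Fkbp5, the chaperone that limits glucocorticoid receptor signalling, was at 13.8, 11.2, 30.5, 20.1 and 14 FPM in cirrhosis and at 60.3, 16.8, 55.2, 21.2 and 53.5 FPM with eplerenone. Treated replicates 1, 3 and 5 were above all cirrhosis rats and the other 2 were not, with a log2FC of 1.21 ± 0.36 (SE, edgeR FDR 0.312). Sgk1, the kinase through which aldosterone raises sodium uptake in the kidney, had a log2FC of 0.05 ± 0.23 (SE). The full palindromic element, AGAACA, any 3 bases and TGTTCT, was present in 2 of 27457 RefSeq promoter windows and in 0 of the 10 windows that matched this list. As it was in 0 of the 10049 windows of genes tested, this count cannot set the list apart from other genes.

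Among genes of vascular tone, Edn1, the vasoconstrictor endothelin, was at 6.38, 14.1, 6.9, 7.49 and 0.476 FPM in cirrhosis and at 2.4, 0.501, 3.52, 0.395 and 1.75 FPM with eplerenone. Apart from cirrhosis replicate 5 all cirrhosis rats lay above all treated rats, and the log2FC was -2.03 ± 0.72 (SE, edgeR FDR 0.312) and -2.79 with 4 rats per group (FDR 0.0214). Agt, angiotensinogen, had a log2FC of 0.13 ± 0.30 (SE). Clock genes, whose levels depend on the hour, were also uneven. In the circadian list 12 of 16 tested members were higher with a median log2FC of 0.83, but the median was 1.80 within prefix 15 and -0.25 within prefix 20. Nr1d1, the clock repressor Rev-erb alpha, was at 22.4, 19.8, 26.1, 43.9 and 3.15 FPM in cirrhosis and at 69, 162.6, 21.2, 37.1 and 92.1 FPM with eplerenone. That is a log2FC of 1.73 ± 0.77 (SE, edgeR FDR 0.33), beside -0.86 ± 0.64 (SE) for Arntl, the activator BMAL1 that it represses. Control rats also ranged widely for Nr1d1 (31.3 ± 32.3 FPM, SD, n = 4). The hour at which each rat was killed is not in the labels, and its part in these values was not tested.

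Genes that build fatty acids were higher with eplerenone in both prefixes. Of 12 tested members 11 were higher, 6 at p below 0.05, and in 3 the groups did not overlap, against 0.423% of all genes. The median log2FC was 0.90, and it was 0.70 and 0.59 within prefixes 15 and 20. Acaca, acetyl-CoA carboxylase, the committed step, was at 4.88, 18.3, 1.13, 7.95 and 11.2 FPM in cirrhosis and at 68, 30.5, 30.4, 41.6 and 25.8 FPM with eplerenone. Every treated rat was above every cirrhosis rat, with a log2FC of 2.17 ± 0.53 (SE) and FDR 0.0138 by DESeq2 and 0.312 by edgeR. Acly, ATP citrate lyase, was at 102.1, 103.8, 68.4, 144.2 and 164.3 FPM in cirrhosis and at 452.5, 174.7, 459.8, 324.6 and 168.2 FPM with eplerenone. The gap between the groups was narrow, between cirrhosis replicate 5 and treated replicate 5, and the log2FC was 1.44 ± 0.36 (SE), with FDR 0.0251 by DESeq2 and 0.312 by edgeR. Thrsp, the lipogenic factor Spot 14, was at 632.7, 301.3, 330.5, 662.8 and 358.1 FPM in cirrhosis and at 1325, 1017, 855.4, 666.6 and 761.1 FPM with eplerenone, again without overlap, a log2FC of 1.02 ± 0.33 (SE, edgeR FDR 0.312). Fasn, fatty acid synthase, had 0.79 ± 0.35 (SE), whereas their regulator Srebf1 had 0.04 ± 0.24 (SE). In the cholesterol synthesis list 15 of 20 were higher with a median of 0.33.

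Genes that burn fatty acids were higher too, but mainly in prefix 15. All 15 tested members of the list of PPAR alpha and its targets were higher, 6 at p below 0.05 against 6.77% of all genes. The median log2FC was 0.77, and it was 1.56 within prefix 15 and 0.15 within prefix 20. Ppara itself, the nuclear receptor of fasting, was at 0.832, 2.41, 1.46, 2.87 and 3.33 FPM in cirrhosis and at 9.66, 15.3, 6.6, 7.39 and 2.19 FPM with eplerenone. Only treated replicate 5 lay within the cirrhosis range, and the log2FC was 1.91 ± 0.43 (SE), with FDR 0.01 by DESeq2 and 0.312 by edgeR. Lpin1, lipin, a phosphatidate phosphatase and coactivator of PPAR alpha, was at 5.99, 12.2, 5.02, 10.1 and 24.3 FPM in cirrhosis and at 64.3, 20.1, 62.8, 81.7 and 53.8 FPM with eplerenone. Treated replicate 2 overlapped with cirrhosis replicate 5 alone. The log2FC of Lpin1 was 2.29 ± 0.50 (SE), similar within prefixes 15 (2.42) and 20 (1.97), with FDR 0.00305 by DESeq2 and 0.312 by edgeR. Its RefSeq promoter on GRCr8 (chr6:45108893-45109192, minus strand) is shown because it holds 1 site TGTTCT, in capitals. The site was found in either orientation in 20.1% of all promoter windows and in 12.6% of the 10049 windows of genes tested. It was found in 0 of the 10 windows of the corticosteroid list, too few to set against that share. The windows of Klf9, Fkbp5, Ppara and Pdk4 hold none.
Lpin1: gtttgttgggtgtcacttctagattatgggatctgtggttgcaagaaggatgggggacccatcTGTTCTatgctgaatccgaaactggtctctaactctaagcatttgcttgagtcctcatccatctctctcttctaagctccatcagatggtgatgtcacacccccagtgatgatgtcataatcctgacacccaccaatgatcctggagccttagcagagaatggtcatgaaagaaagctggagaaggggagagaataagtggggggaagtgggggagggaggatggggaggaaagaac
Pdk4, the kinase that turns off pyruvate dehydrogenase, was at 2.99, 8.53, 2.1, 2.51 and 6.49 FPM in cirrhosis and at 78.2, 30.2, 2.96, 11.8 and 4.75 FPM with eplerenone. Here treated replicates 3 and 5 were in the cirrhosis range, and the log2FC of 2.49 ± 0.74 (SE, edgeR FDR 0.312) was 3.54 within prefix 15, 0.55 within prefix 20 and 1.42 without treated replicate 1. Cpt1a, the gate of mitochondrial import, had 1.47 ± 0.51 (SE).

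In the peroxisomal list 10 of 14 were higher, 6 at p below 0.05, with a median log2FC of 0.46 over 10 rats and 0.79 with 4 rats per group, where 8 members were called higher against 4.46% of all genes. The median was 0.23 without treated replicate 2. Hacl1, a lyase of alpha oxidation, was at 68.3, 37.5, 56, 22.3 and 162.1 FPM in cirrhosis and at 386.2, 826.4, 18.6, 169.7 and 227.2 FPM with eplerenone. Treated replicate 3 was the lowest of all 10 rats and the other treated rats were above all cirrhosis rats. Hacl1 had a log2FC of 2.23 ± 0.70 (SE, edgeR FDR 0.312) and 3.11 with 4 rats per group (FDR 0.0118). Abcd3, a peroxisomal transporter, had 0.62 ± 0.22 (SE). The mitochondrial oxidation list had 17 of 21 higher with a smaller median of 0.24, which was 0.074 without treated replicate 2, and Cpt1a was its single member at p below 0.05.

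**Figure D3:**
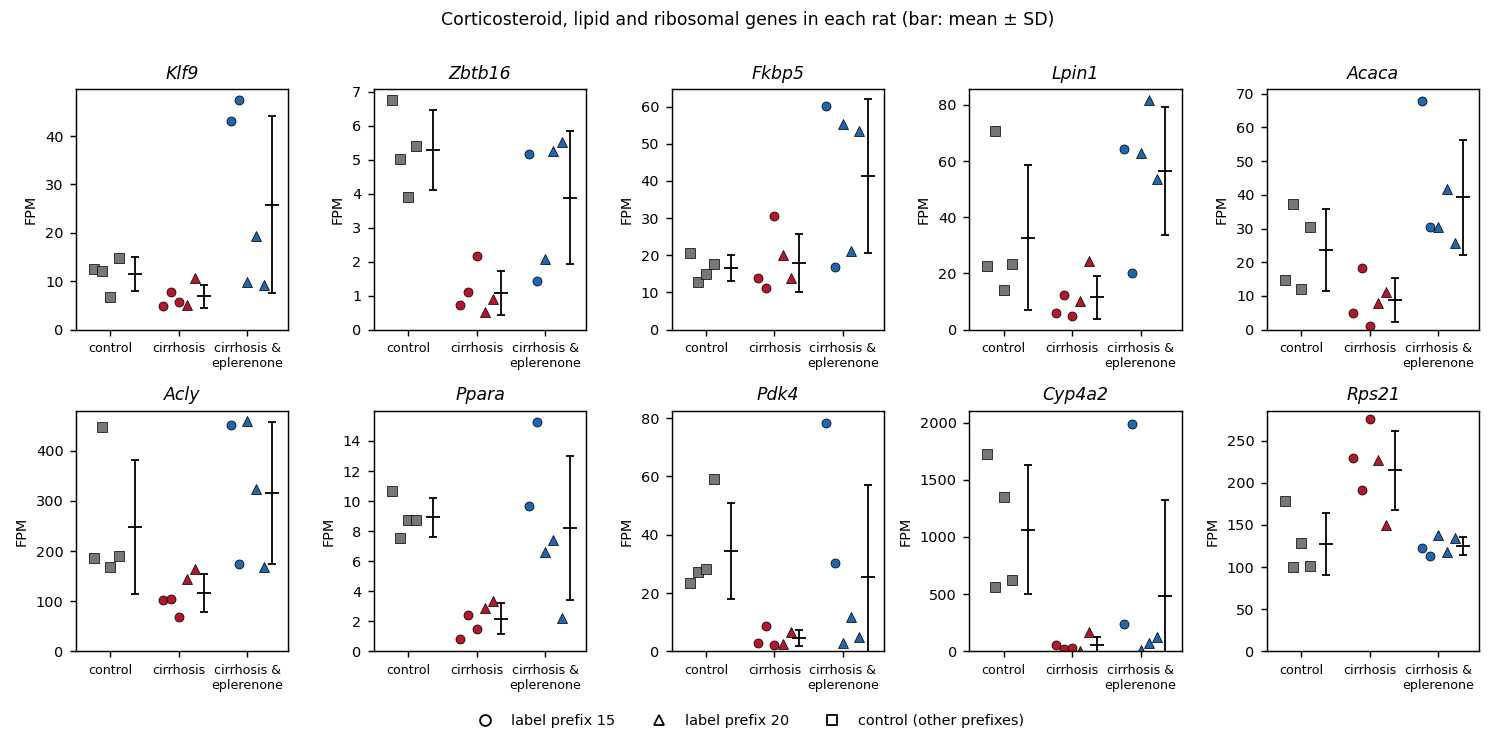
FPM of corticosteroid target, lipid and ribosomal genes in each rat, by group, with circles for label prefix 15, triangles for prefix 20, squares for control, and the mean ± SD at the right; the y axis starts at 0 and cuts any bar that would go below it. Acaca, Acly and Rps21 separate the 5 treated from the 5 cirrhosis rats, while Klf9, Pdk4 and Cyp4a2 are led by the treated rats of prefix 15.

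Other hepatocyte lists varied between prefixes. The pericentral list, genes of hepatocytes around the central vein, had 11 of 12 tested members higher, 3 at p below 0.05, with a median log2FC of 0.85 that was 1.53 within prefix 15, -0.02 within prefix 20 and 0.26 without cirrhosis & eplerenone replicate 2. Glul, glutamine synthetase, was at 121.8, 74.7, 101.5, 151 and 203.8 FPM in cirrhosis and at 324.6, 569.8, 129.7, 260.9 and 117.7 FPM with eplerenone, a log2FC of 1.10 ± 0.38 (SE, edgeR FDR 0.312). Cyp1a2, which metabolizes caffeine and aromatic amines, was at 216.9, 56.8, 116.7, 24.4 and 182.9 FPM in cirrhosis and at 608.9, 1520, 84.1, 232.5 and 141.1 FPM with eplerenone, a log2FC of 2.11 ± 0.72 (SE, edgeR FDR 0.312). Without treated replicate 2 the log2FC was 0.67 for Glul and 1.16 for Cyp1a2. In both genes treated replicates 3 and 5 lay among the cirrhosis rats. The periportal list had 8 of 13 higher and a median of 0.05. The 4 tested genes known to be higher in male than in female rat liver had a median log2FC of 1.46, which was 3.53 within prefix 15, 0.01 within prefix 20 and 3.22 with 4 rats per group. Cyp4a2, a fatty acid omega hydroxylase, was at 52.8, 20.4, 32.5, 3.23 and 171.8 FPM in cirrhosis and at 239.6, 1984, 10, 70.5 and 123.4 FPM with eplerenone. A single rat, treated replicate 2, set its group mean, and the log2FC of 3.11 ± 1.15 (SE, edgeR FDR 0.314) was 0.98 without that rat.

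The cytochromes P450 and their regulators had 18 of 21 tested members higher, 3 at p below 0.05 against 6.77% of all genes. Their median log2FC was 0.34. The median was 0.13 without treated replicate 2. Por, their electron donor, had 1.03 ± 0.45 (SE), which was 0.32 without treated replicate 1, and Nr1i2, the xenobiotic receptor PXR, 0.52 ± 0.19 (SE). Bile acid genes had 14 of 17 higher with a median of 0.46, which was 0.25 without treated replicate 2. Abcc2, the canalicular exporter of conjugates, had 1.26 ± 0.47 (SE), or 0.57 without treated replicate 2, Slco1b2, the sinusoidal importer, 1.05 ± 0.37 (SE), and Cyp7a1, the rate-limiting enzyme of bile acid synthesis, 0.39 ± 0.34 (SE). All 15 hepatocyte transcription factors were higher, with a median of 0.52, but Hnf4a, the master regulator of hepatocyte identity, had only 0.27 ± 0.23 (SE), and 2 passed p below 0.05. Genes of glucose output had 9 of 11 higher, and Slc37a4, the glucose 6-phosphate transporter, had 0.72 ± 0.29 (SE), while all 11 glycolytic isozymes of non-hepatocyte type were lower, with Pkm, the muscle-type pyruvate kinase, at -1.01 ± 0.40 (SE). The median of these isozymes was -0.70 within prefix 15 but 0.09 within prefix 20, where 9 of the 11 were higher. Pkm itself had -1.995 within prefix 15 and 0.009 within prefix 20. Urea cycle genes had 8 of 12 higher with a median of 0.38, which was 0.018 without treated replicate 2, and Slc25a13, the mitochondrial aspartate-glutamate carrier citrin, had 1.62 ± 0.61 (SE). Amino acid catabolism was balanced, with 11 of 21 higher, Tdo2, tryptophan dioxygenase, at 0.94 ± 0.33 (SE) and Gldc, glycine decarboxylase, at -0.94 ± 0.38 (SE, and -0.52 without cirrhosis replicate 2). In the growth hormone list, Ghr, its receptor, had 0.72 ± 0.32 (SE) and Igf1, its main product, 0.20 ± 0.29 (SE).

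In the sequenced rats, genes of the cytosolic ribosome were lower almost without exception. By qRT-PCR in a larger set of rats, the study reported no fall with eplerenone for the small subunit genes it selected. In the small subunit 29 of 30 members were lower with eplerenone, 27 at p below 0.05 against 7.63% of all genes, with a median log2FC of -0.66. In the large subunit 45 of 45 tested were lower, 36 at p below 0.05, with a median of -0.64, and in 4 of them, against 0.541% of all genes, the groups did not overlap. Rps21 was at 229.5, 190.8, 275.7, 226.9 and 150 FPM in cirrhosis and at 122.9, 112.6, 137.7, 117.7 and 134.2 FPM with eplerenone. Its groups did not overlap, and control was at 127 ± 36.8 FPM (SD, n = 4). The log2FC of Rps21 was -0.78 ± 0.20 (SE), with FDR 0.0317 by DESeq2 and 0.312 by edgeR. Rpl17 was at 288.5, 285.8, 371.3, 392 and 227.5 FPM in cirrhosis and at 127.3, 102.1, 197.6, 136.1 and 185.9 FPM with eplerenone, again without overlap. The log2FC of Rpl17 was -1.06 ± 0.24 (SE), with FDR 0.0117 by DESeq2 and 0.312 by edgeR, and it was -1.48 within prefix 15 and -0.82 within prefix 20. With 4 rats per group, not an unselected comparison, 25 of 30 small and 30 of 44 large subunit genes were called lower, against 4.7% of all genes. Without cirrhosis replicates 1 and 3 the medians were -0.28 for the small and -0.29 for the large subunit. Within prefixes the medians were -1.20 and -0.04 for the small subunit and -1.20 and -0.10 for the large. Of the 30 small subunit genes 19 had an unadjusted p below 0.05 for a log2FC that was higher (less negative) in prefix 20, against 6.84% of all genes. The symbol lies on another chromosome in the table than in RefSeq for 5 of the 23 small and 6 of the 36 large subunit genes that RefSeq holds. Reads of ribosomal protein genes can also map to their many processed pseudogenes, and multi-mapping reads were counted, so the level of a single ribosomal gene is uncertain.

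Messages of ribosomal proteins are known to begin with a C and a run of pyrimidines, the TOP element, through which cells set their translation. The letters around the start site of 3 members are shown because they hold this feature, which the list did not use. Only windows whose symbol lies on the same chromosome in the table and in RefSeq were used. A C within 5 bases of the RefSeq start followed by at least 4 pyrimidines was found in 55.6% of the 18 small and 60% of the 30 large subunit promoter windows, against 17% of all 27457 windows and 19% of the 63 windows of respiratory chain genes. Among genes at p below 0.05 it was found in 21.9% of the lower and 15.5% of the higher ones, against 17.3% of the 10049 windows of genes tested. The ribosomal genes were not taken out of the lower ones, so these shares say nothing about other genes with the tract. Each sequence runs from 10 bases before to 30 bases after the start on GRCr8, with the longest tract in capitals: Rps21 at chr3:187724028-187724067 (plus), Rps28 at chr7:15311304-15311343 (minus) and Rpl17 at chr18:70856266-70856305 (plus).
Rps21: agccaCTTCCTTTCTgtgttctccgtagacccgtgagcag
Rps28: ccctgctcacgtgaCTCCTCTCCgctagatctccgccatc
Rpl17: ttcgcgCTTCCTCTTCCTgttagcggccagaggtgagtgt
Besides Rps21 and Rpl17, the log2FC was -0.80 ± 0.22 (SE) for Rps28, -1.09 ± 0.32 (SE) for Fau and -0.81 ± 0.22 (SE) for Rpl35a. Fau and Rpl35a are among the genes whose chromosome in the table differs from that in RefSeq, and no sequence is shown for them. Factors of translation itself were split, with 38 of 66 lower and a median of -0.17. Eif4g1, the scaffold of the cap-binding complex, was at 110, 126.1, 101.4, 170.5 and 216.2 FPM in cirrhosis and at 252.9, 297.3, 172.1, 252.4 and 202.3 FPM with eplerenone, a log2FC of 0.70 ± 0.22 (SE, edgeR FDR 0.312). Eif6, which keeps the large subunit apart from the small one, had -0.68 ± 0.23 (SE).

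Other lists of small proteins leaned the same way. Of 73 nuclear-encoded respiratory chain genes 64 were lower, 33 at p below 0.05 against 7.63% of all genes, with a median log2FC of -0.42. This median was -0.59 within prefix 15 and -0.03 within prefix 20. Ndufa2, a subunit of complex I, was at 137, 65, 171.2, 74 and 78.6 FPM in cirrhosis and at 53.6, 55.7, 54.6, 63.6 and 75.7 FPM with eplerenone. Cirrhosis replicates 1 and 3 stood far above the other 8 rats, and the log2FC was -0.79 ± 0.25 (SE, edgeR FDR 0.312). The mitochondrial ribosome had 64 of 73 lower, 16 at p below 0.05, with a median of -0.29, and the proteasome 33 of 36 lower, 13 at p below 0.05, with a median of -0.32. Within prefixes 15 and 20 the medians were -0.48 and -0.02 for the mitochondrial ribosome and -0.50 and -0.02 for the proteasome. The proteasome members with the lowest p were the immunoproteasome subunits Psmb10 (-1.09 ± 0.32, SE), Psmb9 (-0.77 ± 0.27, SE) and Psmb8 (-0.72 ± 0.26, SE), which replace the standard catalytic subunits in immune cells.

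These lists share short genes, and gene length moved with the comparison. Among 12245 tested genes with a RefSeq length and the same chromosome there, cut into 4 classes of equal size by length, the median log2FC was -0.20 in the shortest class, -0.03 and 0.09 in the middle classes and 0.21 in the longest. Within prefix 15 the range was from -0.43 to 0.37, and within prefix 20 from -0.01 to 0.05. The difference in median log2 FPM between the longest and the shortest class was -1.44 and -1.59 in cirrhosis replicates 1 and 3, and between -1.16 and -0.45 in the other 8 CCl4 rats. An offset per sample and length class was fitted to genes with a length. The medians were then -0.36 for 24 small and -0.40 for 37 large subunit genes. They were -0.23 for 70 respiratory chain genes and 0.52 for 16 sinusoidal endothelial genes. Without cirrhosis replicates 1 and 3, the respiratory chain median was -0.066. The part of gene length in these shifts was not tested further.

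**Figure D4:**
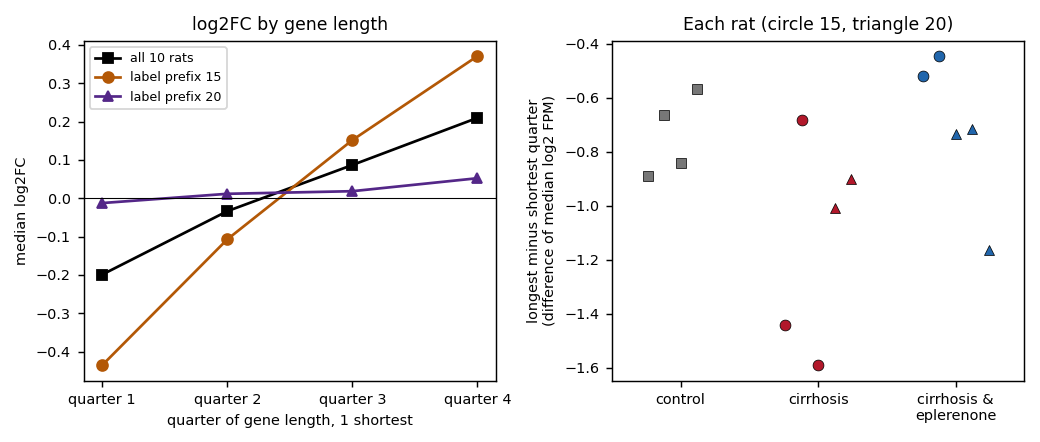
Left, median log2FC of 12245 genes by class of genomic length (1 shortest, 4 longest) for all 10 rats and within each label prefix; right, the difference of median log2 FPM between the longest and shortest class in each rat. The median runs from -0.20 to 0.21 over 10 rats, more steeply within prefix 15 and nearly flat within prefix 20, and cirrhosis replicates 1 and 3 lie lowest.

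Matrix genes did not share one direction. Of 28 tested collagens 17 were higher, 6 at p below 0.05 against 6.77% of all genes. The median log2FC was 0.22 over 10 rats, 0.01 with 4 rats per group and 0.03 with the length offset, the collagens having long genes. Col14a1, a collagen that binds fibrils, was at 13.1, 10.8, 15.9, 13.8 and 10.1 FPM in cirrhosis and at 33.5, 39.6, 16.1, 25.2 and 18.3 FPM with eplerenone. Its groups did not overlap, and the log2FC was 1.06 ± 0.27 (SE, edgeR FDR 0.312). Col5a1 had 0.96 ± 0.30 (SE) and the basement membrane chain Col4a2 0.79 ± 0.27 (SE), whereas Col1a1, the main scar collagen, had -0.35 ± 0.43 (SE). Other matrix proteins and enzymes had 15 of 22 tested members lower with a median of -0.16, among them Loxl1, a crosslinking enzyme, with -1.02 ± 0.47 (SE). Fn1, fibronectin, had 0.35 ± 0.19 (SE). Tgfb1, the main profibrotic cytokine, had -0.81 ± 0.37 (SE), and its receptor Tgfbr2 had 1.10 ± 0.39 (SE). The actin cytoskeleton list had 19 of 24 lower, 7 at p below 0.05, with Myl6, a myosin light chain, at -0.99 ± 0.31 (SE). The median of the actin list was -0.99 within prefix 15 but 0.12 within prefix 20, where 15 of 23 were higher.

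Immune and proliferation genes were lower on average. All 13 members of the MHC list were lower, 7 at p below 0.05 against 7.63% of all genes, with a median log2FC of -0.77. This median was -1.52 within prefix 15 and -0.19 within prefix 20, where 4 of the 13 were higher. Cd74, the invariant chain of class II molecules, was at 1043, 694.7, 1398, 700.9 and 355.2 FPM in cirrhosis and at 314.5, 160.5, 616.3, 343.4 and 474.7 FPM with eplerenone. Again cirrhosis replicate 5 lay among the treated rats, and the log2FC was -1.13 ± 0.38 (SE, edgeR FDR 0.312) over 10 rats and -1.59 with 4 rats per group (FDR 0.0214). Genes of NF-kB signalling had 11 of 14 lower with a median of -0.38, led by the subunits Nfkb2 (-0.70 ± 0.24, SE) and Relb (-1.12 ± 0.38, SE). Outside that list, Traf1, an adaptor of TNF receptors, was at 14.8, 8.08, 15.2, 7.03 and 4.7 FPM in cirrhosis and at 3.07, 2.31, 3.81, 2.2 and 3.22 FPM with eplerenone. No treated rat reached the lowest cirrhosis rat, and the log2FC was -1.76 ± 0.49 (SE), with FDR 0.0458 by DESeq2 and 0.312 by edgeR. Ccl2, a monocyte chemokine, had -0.88 ± 0.66 (SE). Interferon-stimulated genes had a median of -0.06.

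All 21 tested cell cycle genes were lower, 3 at p below 0.05 against 7.63% of all genes, with a median log2FC of -0.79. Top2a, the topoisomerase of dividing cells, was at 18.4, 10.9, 16.1, 7.59 and 7.38 FPM in cirrhosis and at 3.27, 0.501, 13.3, 2.15 and 9.07 FPM with eplerenone. Treated replicates 3 and 5 lay inside the cirrhosis range, and the log2FC was -1.08 ± 0.59 (SE, edgeR FDR 0.387). The median of the list was -2.54 within prefix 15, 0.15 within prefix 20 and -1.46 with 4 rats per group. Acute phase proteins went both ways, with Lcn2, lipocalin, at -1.75 ± 0.81 (SE, and -2.92 without treated replicate 3), Orm1, orosomucoid, at -0.94 ± 0.31 (SE), Lbp, which binds endotoxin, at -0.90 ± 0.36 (SE) and Crp, C-reactive protein, at 1.38 ± 0.64 (SE). Complement had 11 of 18 tested members lower and a median of -0.11, with Masp1, a protease of the lectin path, at 1.60 ± 0.57 (SE, and 0.87 without treated replicate 2). Of NRF2 targets 5 of 10 were lower, with Nqo1, a quinone reductase, at -1.73 ± 0.59 (SE). Xbp1, a factor of the unfolded protein response, had 1.09 ± 0.41 (SE), or 0.67 without treated replicate 2, while the median of its list was -0.02.

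**Figure D5:**
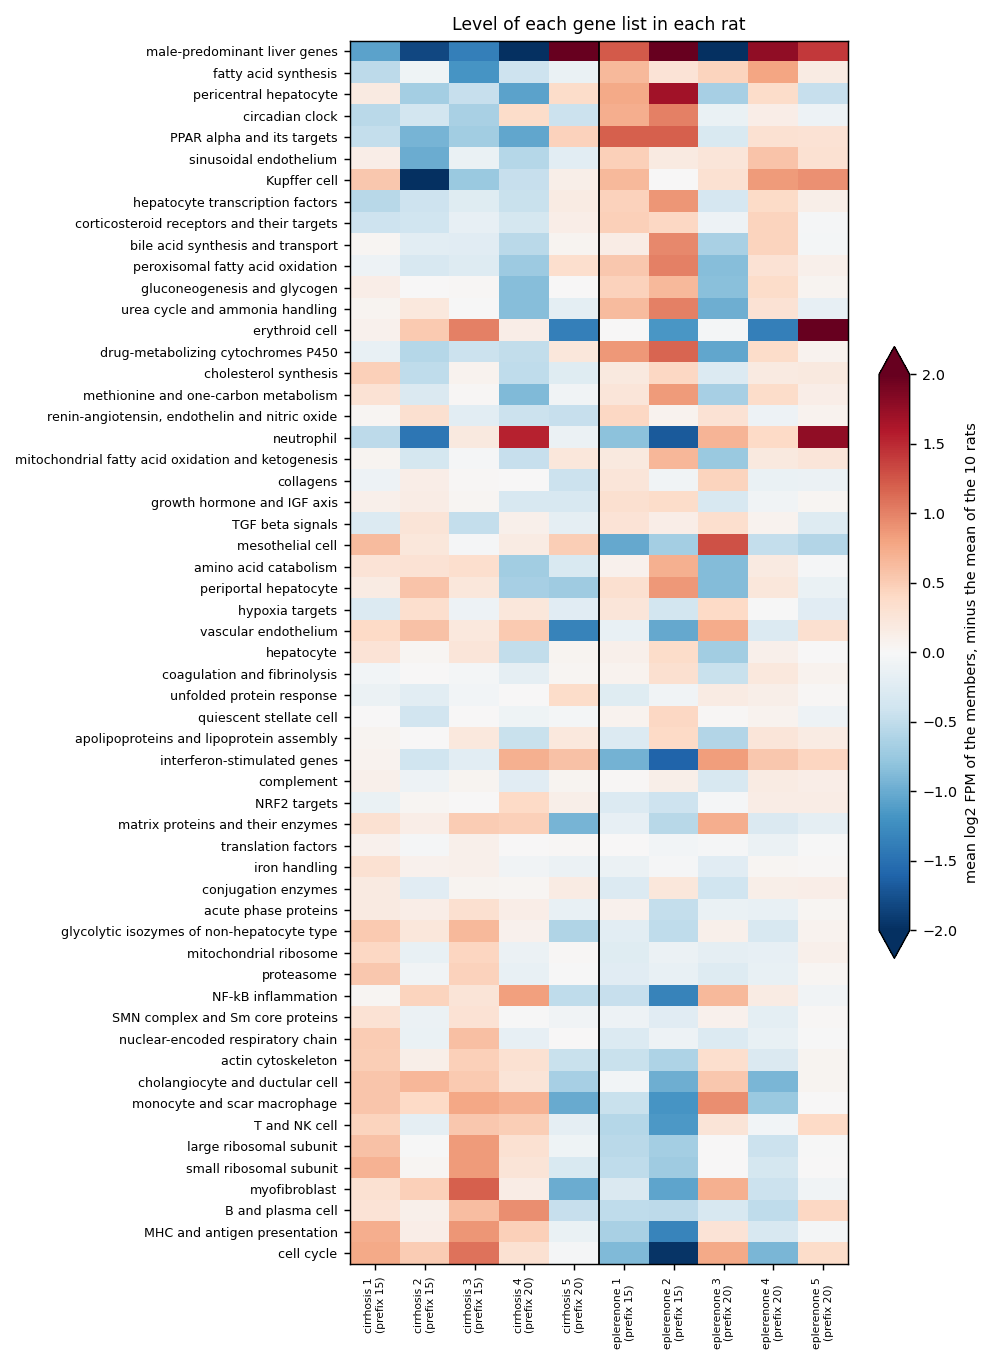
Mean log2 FPM of the members of each gene list in each of the 10 CCl4 rats, minus the mean of the 10 rats, with colours capped at 2 in either direction and the lists in the order of their median log2FC. Cirrhosis replicate 5 is below and treated replicate 3 above the mean in the myofibroblast, scar macrophage and cholangiocyte lists, opposite to the other rats of cirrhosis and to treated replicates 1, 2 and 4.

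Because both groups hold both prefixes, the difference could be read within each. Among the 5 rats of prefix 15, 1881 genes were higher (13.1%) and 1905 lower (13.3%) at an edgeR unadjusted p below 0.05, and 87 had FDR below 0.05. Among the 5 rats of prefix 20, 101 genes were higher (0.703%) and 56 lower (0.39%), and 0 had FDR below 0.05 by edgeR, the only tool run there. The test of the difference between prefixes covered 13795 genes, of which 0 had FDR below 0.05 by edgeR (lowest 0.142). At unadjusted p below 0.05 the log2FC was higher in prefix 20 for 944 genes (6.84%) and lower for 745 (5.4%). In simulated data with the spread of these libraries this test recovered 9% of genes with a 4-fold difference, so an effect that differs between prefixes would mostly be missed. Cirrhosis replicate 5 and cirrhosis & eplerenone replicate 3 are both of prefix 20, and leaving out cirrhosis replicate 2 gave 88 genes with FDR below 0.05 for the difference. The genes with the lowest p for the difference included Bhlhe40, a clock repressor, with log2FC of 2.06 in prefix 15 and -0.39 in prefix 20, and Usp2, a deubiquitinase with daily rhythm, with 2.64 and -0.38.

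Among single genes outside the lists, the largest log2FC of those with no overlap between groups were found for Sh3d21 (2.23 ± 0.63, SE, and 0.91 without treated replicate 5), Epha3, an ephrin receptor (1.92 ± 0.45, SE), Itgb3, the integrin beta 3 chain (1.77 ± 0.47, SE, and 1.14 without treated replicate 2), Aff1, an elongation factor (1.61 ± 0.44, SE), Erg, an endothelial transcription factor (1.48 ± 0.37, SE), Bmerb1 (1.48 ± 0.60, SE) and Foxo3, a forkhead factor (1.43 ± 0.44, SE). DESeq2 called Epha3 (FDR 0.0136), Itgb3 (0.0458), Aff1 (0.0458) and Erg (0.0227) on all 10 rats, and edgeR called none of these 7 genes. The largest negative values with no overlap, after Traf1, included Espl1, the protease separase that releases sister chromatids (-1.17 ± 0.34, SE), Lat, an adaptor of T cell receptor signalling (-1.17 ± 0.34, SE), Ryr1, a calcium release channel (-1.01 ± 0.31, SE), and Cblc, a ubiquitin ligase (-0.97 ± 0.27, SE). None of these genes outside the lists had an edgeR FDR below 0.28 on all 10 rats.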

How the data were processed

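The deposited file holds raw counts per gene, which the authors made from paired-end reads of poly(A)-selected liver RNA. Per the submitters' processing notes and the study's methods, reads were mapped to rn6 with HISAT2 (2.1.0) and counted over exons with featureCounts, multi-mapping reads included. Strand is not given in the sources used here. Control replicate 1 was not analysed here.

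Counts were filtered with filterByExpr and scaled by TMM, and the groups, with control in the fit, were compared with the quasi-likelihood test of edgeR (4.0.16, R 4.3.3, limma 3.58.1) with Benjamini-Hochberg FDR. DESeq2 (1.42.0) was an alternative, as were other scaling, filters, samples and covariates. In simulated data of these groups edgeR recovered 91.5% of 200 genes changed 4-fold, with 6 false calls among 14116 genes, and DESeq2 96% with 32. Only well-counted genes were changed, alike in every treated rat, and each count was drawn on its own. These shares therefore do not give the power in the real data, where rats of a group differed in many genes at once. The members and gene lists were chosen with earlier results of these data known. A list is described by counts and its median log2FC, with no test of the list. Genes named were those called, the 10 largest positive and negative log2FC without overlap at a mean of at least 1 FPM, in each list the 3 lowest p below 0.05 and the first 2 members, genes of the study itself, and the 5 lowest p between prefixes. Promoters came from RefSeq (GRCr8), matched by symbol and chromosome. p-values measure the spread between these rats. A few genes that this rule names are not reported here.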

Additional observations from a re-analysis of the deposited data

Results flagged for a closer look

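In each CCl4 group of 5 rats, the gap of the highest or lowest rat to its neighbour was divided by the group's range. This ratio passed Dixon's 95% limit in 11 of 186 groups of values (5.91%), and chance flags about 1 in 20. Cirrhosis replicate 5 was the rat set apart for Mrc1 (19.5 FPM, ratio 0.752) and for the mean log2 FPM of the vascular endothelial (1.97, 0.804), monocyte and scar macrophage (3.21, 0.792), male-predominant (9.56, 0.711) and matrix lists (2.94, 0.74). Cirrhosis replicate 4 was set apart for the gluconeogenesis (7.30, 0.869) and circadian lists (4.31, 0.729), and cirrhosis replicate 2 for the quiescent stellate list (3.33, 0.759).

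In cirrhosis & eplerenone, replicate 2 was set apart for Cyp4a2 (1984 FPM, ratio 0.884), replicate 5 for the B and plasma cell list (0.955, 0.782) and replicate 3 for the mesothelial list (3.11, 0.758).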

How the results depend on the processing

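The number of genes at edgeR FDR below 0.05 depended on the samples: 2 with all, 0 to 26 with 1 sample left out (26 without cirrhosis replicate 5, 0 without cirrhosis replicate 1), 1294 with 4 rats per group, 0 without cirrhosis replicates 1 and 3 (a choice made after seeing the data, as was the gene length offset), 87 in prefix 15 alone and 0 in prefix 20 alone. DESeq2 gave 74. The replicate block gave 0, with FDR 0.0835 for Gemin6 and for Ehd3; the replicate numbers do not pair the rats (correlations of same-numbered deviations from -0.333 to 0.156). Genes higher at unadjusted p below 0.05 numbered 486 to 1985 with 1 sample left out, 2218 with 4 rats per group, 632 with the prefix as covariate, 293 without cirrhosis replicates 1 and 3, 1881 in prefix 15 and 101 in prefix 20. Genes lower numbered 484 to 1739, 2179, 575, 223, 1905 and 56 in the same order, and 688 with total counts. For the difference between prefixes, 0 to 88 genes passed with 1 sample left out (88 without cirrhosis replicate 2). The cause of these moves was not tested. With 4 rats per group the median log2FC was 0.24 for quiescent stellate, 0.76 for corticosteroid and 0.60 for growth hormone genes. Without cirrhosis replicates 1 and 3 it was 0.16 for quiescent stellate, -0.066 for respiratory chain, -0.047 for mitochondrial ribosome, -0.041 for translation factors (-0.059 with the length offset), -0.17 for SMN and Sm, 0.0080 for acute phase and 0.070 for complement genes. With the length offset it was -0.015 for iron handling. With 1 sample left out, quiescent stellate ranged from -0.11 to 0.20 and erythroid from -0.87 to 0.59. Of 58 list medians, 8 changed sign with 4 rats per group, with the length offset, without cirrhosis replicate 5 and without cirrhosis replicates 1 and 3 (each), 5 with the prefix as covariate, 4 with the replicate block, 3 with total counts and 1 with DESeq2's size factors.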
